A study of Mus musculus with 6 samples.

Results

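The sites described here are the minus-strand RNA contact sites of JARID2 at 2 nuclear loci of the mouse genome that are candidate copies of mitochondrial DNA. They were taken by position, from chr1:24618000-24623500 and chr2:22442000-22446500 of the mm9 build, and number 203 of the 28728 sites in both deposited lists. The untreated list held 120 of them among 23380 sites, 84 on chromosome 1 and 36 on chromosome 2. The retinoic acid list held 83 among 5348 sites, 57 on chromosome 1 and 26 on chromosome 2. The windows were chosen by the number and position of sites in these same lists, so the site counts describe the choice and were not tested.

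The study used E14, an embryonic stem cell line of the mouse that the labels describe as wild type and grown with serum and LIF, a cytokine that keeps such cells undifferentiated. One group was left untreated and the other received 2 µM retinoic acid, an inducer of differentiation, for 24 h. In PAR-CLIP, cells of both groups took up 4-thiouridine (500 µM, 2 h), a uridine analogue that crosslinks to bound protein under UV light (312 nm, 400 mJ/cm2), and JARID2 was then immunoprecipitated with an in-house antibody. Each group has 3 libraries, but the authors deposited 1 pooled list per group, so n is 1 list per condition, there is no spread between replicates and no test between conditions was possible. The lists give a whole-number score per site, and what it counts is unknown here. Shares below carry exact 95% binomial intervals, which cover counting error only and treat neighbouring sites as independent, which they are not.

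JARID2 is a partner protein of PRC2, the Polycomb complex that methylates histone H3 at lysine 27. Pieces of mitochondrial DNA have moved into nuclear chromosomes in the course of evolution, and such nuclear copies are annotated as pseudogenes of the mitochondrial genes they resemble. A recent copy can be almost identical to the mitochondrial genome, so that a short read from a mitochondrial transcript may match both places. The mitochondrial genome encodes subunits of the respiratory chain, among them cytochrome c oxidase (mt-Co1, mt-Co2, mt-Co3), the ATP synthase (mt-Atp6, mt-Atp8) and complex I (mt-Nd2, mt-Nd3, mt-Nd4, mt-Nd4l), and most of its genes are read from the plus strand.

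The GENCODE M21 annotation, which is on the later GRCm38 build, holds 7 unprocessed pseudogenes in a row on the minus strand of chromosome 1 and 3 on the minus strand of chromosome 2 that resemble adjoining mitochondrial genes. On chromosome 1, in transcript order, these are Gm29216 (GRCm38 chr1:24615706-24616197, the 3′ part of mt-Co1), Gm28661 (chr1:24614885-24615565, mt-Co2), Gm10925 (chr1:24613974-24614651, mt-Atp6), Gm28437 (chr1:24613189-24613971, mt-Co3), Gm28438 (chr1:24612775-24613119, mt-Nd3), Gm10222 (chr1:24612407-24612700, mt-Nd4l) and Gm28439 (chr1:24611535-24612410, the 5′ part of mt-Nd4). Their transcripts differed from the mitochondrial genes by 7 substitutions in 4149 aligned bases, an identity of 99.8%. Of the 7, 6 lie in the first bases of Gm29216 and 1 in Gm28438, and the other 5 pseudogenes are identical to their mitochondrial counterparts over all aligned bases. On chromosome 2 the pseudogenes are Gm13339 (GRCm38 chr2:22590024-22590533, the 3′ part of mt-Nd2), Gm13340 (chr2:22588103-22589647, mt-Co1) and Gm13341 (chr2:22587291-22587962, mt-Co2). They carry 70 substitutions in 2727 aligned bases, an identity of 97.4%, and Gm13341 also lacks 12 bases of mt-Co2. Of the 70 substitutions, 20 are T-to-C and 20 are C-to-T, with the mitochondrial base first.

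The following stretches show examples of match and difference. The chromosome 1 copy matches mitochondrial DNA at the highest-scored site and differs by 1 base at the site with the second highest score. The chromosome 2 stretches were drawn wide enough to take in substitutions. The nearest lies 3 bases from the site at 22444022 to 22444032 and 30 bases from the treated site scored 494, and neither site holds one. In the first pair, capitals mark the 8 bases of the chromosome 1 site with the highest score (870, untreated list), as placed below, which may be off by some bases. In the other pairs, capitals mark the bases that differ.
Gm28437, bases 268 to 295: gaagtattttTCTTTGCAggattcttct
mt-Co3, bases 268 to 295: gaagtatttttctttgcaggattcttct
Gm28438, bases 1 to 33: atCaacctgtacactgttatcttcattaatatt
mt-Nd3, bases 1 to 33: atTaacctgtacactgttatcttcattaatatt
Gm13340, bases 1107 to 1177: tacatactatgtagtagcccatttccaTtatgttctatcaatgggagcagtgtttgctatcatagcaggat
mt-Co1, bases 1107 to 1177: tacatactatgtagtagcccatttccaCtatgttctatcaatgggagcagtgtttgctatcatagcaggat
Gm13340, bases 209 to 343: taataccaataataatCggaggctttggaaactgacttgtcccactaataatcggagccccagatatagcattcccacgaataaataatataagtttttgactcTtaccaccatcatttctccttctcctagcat
mt-Co1, bases 209 to 343: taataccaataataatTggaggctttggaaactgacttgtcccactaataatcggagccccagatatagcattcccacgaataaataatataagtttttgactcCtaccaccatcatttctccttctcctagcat

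Coordinates were not carried between builds. Instead, the sites of each locus were laid on the pseudogene sequences at the shift that put the most sites wholly on annotated sequence with a T, the base of a 4-thiouridine crosslink, in every one of them. This rule was chosen after several others had been tried on the data. On chromosome 1 the chosen shift put 132 of 141 sites on sequence, and on chromosome 2 it put 59 of 62, each with a T in all. A T in every site is a weak criterion. Over the shifts that kept at least 50% of the sites on sequence, the mean share of these sites with a T was 96.8% and 96.0%. A T in all was found at 216 and 554 of these shifts, the chosen ones among them. At this placement, the chromosome 1 sites face positions 6414 to 10947 of the mitochondrial chromosome, from the 3′ part of mt-Co1 to the 5′ part of mt-Nd4, and the chromosome 2 sites face positions 4652 to 7672, from the 3′ part of mt-Nd2 through mt-Co1 to mt-Co2. In all 5 shifts were tied on each chromosome, and the middle of the longest run of tied shifts was taken. The others lay 1, 26 and 27 bases away on chromosome 1 and 1, 2 and 10 bases away on chromosome 2. On simulated sites the rule did not always recover the true shift. Positions in the pseudogenes are therefore approximate, and results that turn on single bases are given at other shifts too.

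Along the bases, scores at the loci and on the mitochondrial plus strand were weakly correlated at any shift. On chromosome 1 the correlation was highest at the placement or within 3 bases of it. The Pearson correlation of log2(score + 1) per base between the locus and the mirrored mitochondrial plus strand was 0.21 in the untreated list and 0.17 in the retinoic acid list, over 4535 bases that are not independent of each other. For the mean of both lists it peaked at 0.20, 2 bases from the placement, against 0.12 at the best shift more than 20 bases away. Distant shifts reached 0.15 in the untreated list alone and 0.16 in the retinoic acid list alone. On chromosome 2 the pattern singled out the placement less clearly. The correlation there was 0.18 untreated and 0.17 treated, below other shifts that reached 0.19 in each list, and the placement ranked first only for the mean of both lists, at 0.17 against 0.16 at a shift of -34 bases.

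On chromosome 1 the sites of both lists ran from 24618469 to 24623003, a span of 4535 bases of which untreated sites covered 27.5% and treated sites 19.2%. The widest gap between neighbouring sites was 167 bases untreated and 528 bases treated, the latter across mt-Nd3. The nearest other minus-strand sites of either list lay 2720 kb below and 1188 kb above. In transcript direction the locus opened with untreated and treated sites that began at the same base, 24623003, with scores of 61 and 15. It closed with a site scored 56 untreated (24618474 to 24618489) and an overlapping site scored 34 treated (24618469 to 24618479). Scores ran from 23 to 870 with a median of 90.5 (quartiles 64.5 and 202) in the untreated list, and from 12 to 459 with a median of 71 (45 and 96) in the retinoic acid list. Plus-strand sites of the mitochondrial chromosome scored higher in the same lists, with medians of 183.5 over 286 sites and 174 over 235 sites. All other nuclear sites had medians of 17 and 22. A score of at least 100 was reached by 44.0% of the untreated chromosome 1 sites (interval 33.2 to 55.3), 72.7% of the mitochondrial plus-strand sites (67.2 to 77.8) and 6.98% of other nuclear sites (6.66 to 7.32). In the retinoic acid list the same shares were 24.6% (14.1 to 37.8), 69.4% (63.0 to 75.2) and 17.7% (16.7 to 18.8).

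Of the 5 highest untreated scores on chromosome 1, 4 lay opposite mt-Co3 and mt-Co2 and faced mitochondrial sites with higher scores. The other, 789, faced no untreated mitochondrial site and is described with the start of mt-Nd3. The site with the highest score, 870, at 24620526 to 24620533, faced a mitochondrial site scored 977 in mt-Co3. In the same gene, the site scored 688 at 24620553 to 24620562 faced a mitochondrial site scored 765. Opposite mt-Co2, sites scored 579 (24621933 to 24621940) and 561 (24621924 to 24621929) both faced 1 mitochondrial site scored 1377. Among these 4 sites, those opposite mt-Co3 came closest to the scores of the mitochondrial sites that they faced.

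In the retinoic acid list the order differed. The highest treated score, 459, was opposite mt-Co1 at 24622944 to 24622966, facing a mitochondrial site scored 1276. The next, 421, lay opposite mt-Co2 at 24622336 to 24622343 and was higher than the mitochondrial site scored 366 that it overlapped. They shared only position 7081 at the placement, and a shift of 1 base to one side, among the tied shifts, removes this overlap. Sites scored 266 (24621365 to 24621372) and 255 (24621352 to 24621358) lay opposite mt-Atp6 and overlapped the same mitochondrial site, scored 508. A site scored 264 (24620972 to 24620984), also opposite mt-Atp6, overlapped a mitochondrial site scored 345. Opposite mt-Co3, which carried the highest untreated score, no treated site scored above 126.

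Over the whole facing stretch, the chromosome 1 locus had about as many untreated sites as the mitochondrial plus strand, 84 against 88, with a lower summed score, 13530 against 25362, a ratio of 0.533. Treated, it had 57 against 80 sites and summed scores of 5230 and 16685, a ratio of 0.313. After mirroring, 58 of 84 untreated sites (69.0%, interval 58.0 to 78.7) and 39 of 57 treated sites (68.4%, 54.8 to 80.1) overlapped a mitochondrial site of their list by at least 1 base. Shifts more than 20 bases away gave up to 59 and 38 overlaps, so this count does not single out the placement on chromosome 1 either. Mitochondrial sites covered 32.1% and 24.2% of the stretch, and 44.6% and 37.9% of the bases within chromosome 1 sites lay in them. No site had the mirrored start and end of a mitochondrial site. Paired by overlap, the locus score was a median of 0.518 of the mitochondrial score over 38 untreated pairs (interval 0.396 to 0.703) and 0.445 over 30 treated pairs (0.345 to 0.667). The locus score was the higher in 4 untreated and 5 treated pairs.

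The ratio of summed scores varied along the stretch. In the untreated list it was lowest opposite mt-Co1, at 0.276 (2221 over 12 locus sites against 8040 over 14 mitochondrial sites), and higher opposite mt-Co2 at 0.654 (2775 against 4242), mt-Co3 at 0.595 (3149 against 5295) and mt-Atp6 at 0.786 (2545 against 3236). Opposite the complex I genes it was 0.619 for mt-Nd4l and 0.552 for mt-Nd4. In the retinoic acid list it was lower for each of these 6 genes: 0.170 for mt-Co1, 0.359 for mt-Co2, 0.320 for mt-Co3, 0.661 for mt-Atp6, 0.333 for mt-Nd4l and 0.349 for mt-Nd4. Opposite mt-Atp8, with 4 untreated and 2 treated locus sites, it went from 0.296 to 0.845. These sums also move with how many sites were listed, and a site across adjoining genes counts for each.

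**Figure D1:**
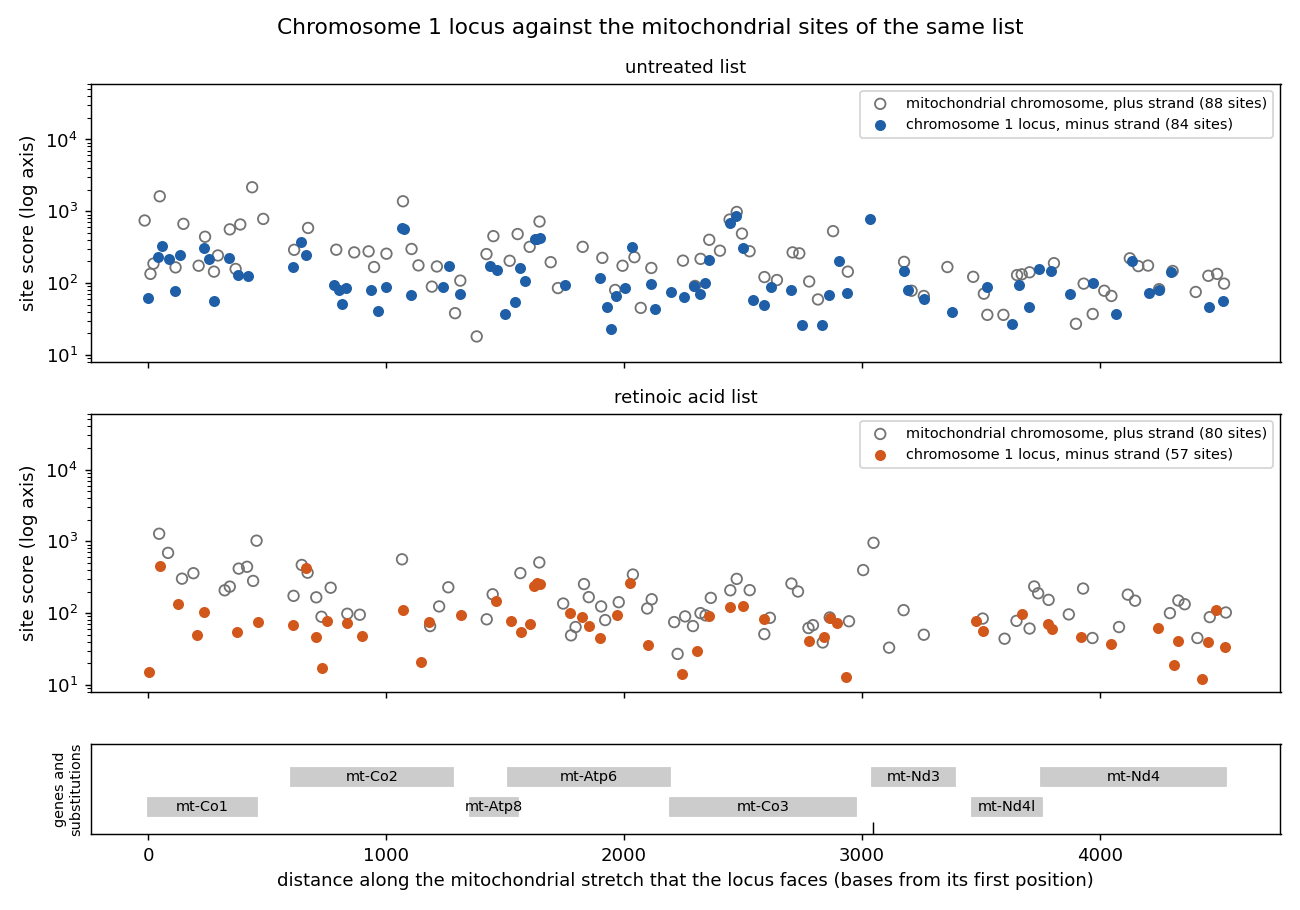
Score of each site (vertical log axis) against distance in bases along the mitochondrial stretch that the chromosome 1 locus faces (horizontal axis), untreated list above and retinoic acid list in the middle, with mitochondrial plus-strand sites as open circles and locus sites as filled ones. Grey bars below mark mitochondrial genes and the tick marks the substitution in Gm28438; the locus sites lie along the whole stretch, mostly below the mitochondrial sites beside them, and no treated locus site lies opposite mt-Nd3.

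The start of mt-Nd3 stood apart from the rest of the chromosome 1 locus, and within the span of the sites it is where the annotated pseudogenes differ from mitochondrial DNA. The untreated site there, at 24619952 to 24619981, had the second highest score of the locus, 789, and faced positions 9436 to 9465, across the end of the glycine transfer RNA gene mt-Tg and the start of mt-Nd3. It covers the substitution T3C, with the mitochondrial base first and positions counted from the first base of mt-Nd3, shown in the second pair of sequences above. It does so at the chosen shift and its direct neighbours, but not at the tied shifts 26 and 27 bases away, nor when moved by 5 bases to one side. No untreated mitochondrial plus-strand site lay nearby. In the retinoic acid list the picture was the other way round, with no chromosome 1 site there and mitochondrial sites from 9418 to 9422 (score 398) and from 9441 to 9486 (score 954), the latter over the same substitution. Opposite mt-Nd3 as a whole, the untreated list gave 5 locus sites with a summed score of 1116 and 4 mitochondrial sites with 508, and the treated list gave 0 locus sites and 4 mitochondrial sites with 1147. With 1 list per condition, this exchange has no replicate check. The base that the reads carried at this position was not analysed here.

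Many chromosome 1 sites recurred in the other list. Of the untreated sites, 40 of 84 (47.6%, interval 36.6 to 58.8) shared 1 base or more with a treated site on their strand, and of the treated sites, 37 of 57 (64.9%, 51.1 to 77.1) overlapped an untreated one. The mitochondrial plus strand gave 55.9% (49.98 to 61.8) and 69.8% (63.5 to 75.6), the mitochondrial minus strand 24.5% (16.8 to 33.7) and 70.0% (53.5 to 83.4), and other nuclear sites 5.34% (5.06 to 5.64) and 24.3% (23.1 to 25.5). Plus-strand mitochondrial sites of the stretch that the locus faces gave 54.5% (43.6 to 65.2) and 61.25% (49.7 to 71.9). The windows were chosen for their many sites in both lists, which makes overlaps between lists frequent, so these shares are a description and the contrast with the sparse other nuclear sites restates the choice. No chromosome 1 site had the same start and end in both lists. The median score was 136 for untreated sites that recurred and 80.5 for the others, and in the retinoic acid list the medians were 73 and 58. The untreated site with the highest score, opposite mt-Co3, did not recur.

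At 31 pairs of chromosome 1 sites that overlapped each other and no further site, the treated score was a median of 0.603 of the untreated score (interval 0.381 to 0.837, range 0.132 to 1.81), and it was the higher in 7 pairs. Pairs of mutual best overlaps, 36 in number, gave 0.561 with a range of 0.132 to 2.00, and they include the highest treated site, scored 459 against 229 untreated. That treated site also contains a shorter untreated site scored 331, which this pairing leaves out, and the upper end of the range rests on that. Mitochondrial plus-strand pairs gave 0.689 (0.614 to 0.742) over 133 pairs, and other nuclear pairs 0.839 (0.796 to 0.893) over 1132. The intervals of chromosome 1 and of the mitochondrial plus strand overlap. The pair opposite mt-Co3 with untreated score 688 had a treated score of 122, while that opposite mt-Co2 with untreated score 246 had a treated score of 421. The scores are those of lists of different lengths whose depth is unknown, so a ratio below 1 does not show less contact. In pooled lysates, fewer cells with contact and less contact per cell cannot be told apart.

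**Figure D2:**
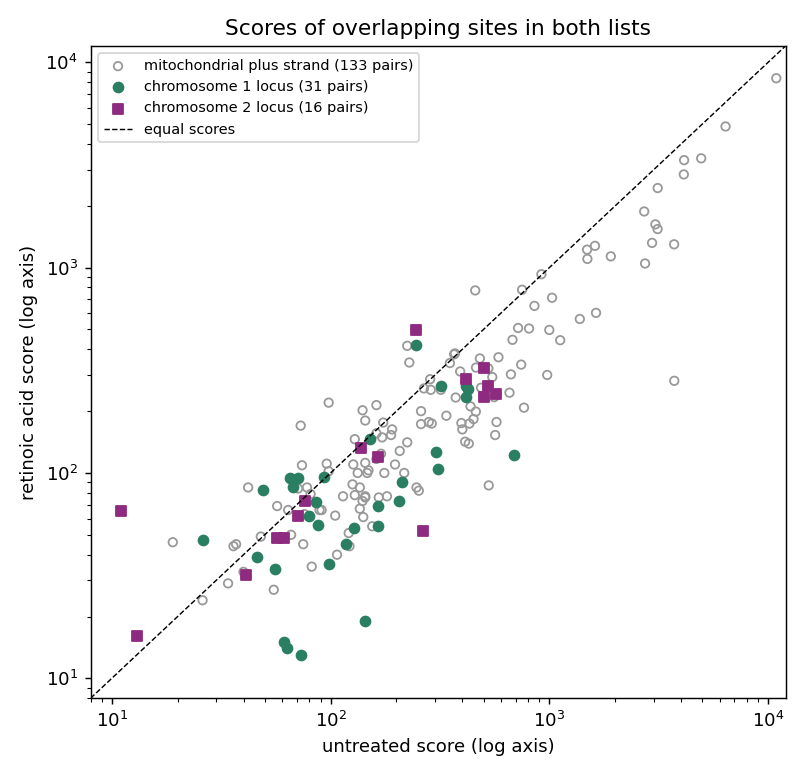
Retinoic acid score against untreated score for overlapping sites (both axes log), with 133 mitochondrial plus-strand pairs, 31 chromosome 1 pairs and 16 chromosome 2 pairs; the dashed line marks equal scores. Most points lie below the line in each class, and the 7 chromosome 1 and 3 chromosome 2 pairs with the higher treated score lie above it.

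The chromosome 2 locus held fewer sites over a shorter span. They lay between 22442836 and 22445844, a span of 3009 bases. Untreated sites covered 17.8% of their own span of 3003 bases, and treated sites 12.7% of their own span of 2859 bases. The nearest other minus-strand sites lay 1565 kb below and 154.5 kb above, the latter with a score of 37146 untreated. Scores ran from 11 to 568 with a median of 73 (quartiles 27.8 and 217.5) in the untreated list and from 16 to 494 with a median of 83 (48.3 and 213) in the retinoic acid list. At least 100 was reached by 41.7% of untreated sites (interval 25.5 to 59.2) and 46.2% of treated sites (26.6 to 66.6). In transcript direction the first untreated site was at 22445834 to 22445844, opposite mt-Nd2, with a score of 13, and the first treated site at 22445687 to 22445694, also opposite mt-Nd2, with a score of 48. The last sites overlapped each other opposite mt-Co2, with scores of 137 untreated (22442842 to 22442849) and 132 treated (22442836 to 22442844).

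The highest scores of the chromosome 2 locus all lay opposite mt-Co1. In the untreated list these were 568 (22443587 to 22443634), 523 (22444734 to 22444764), 505 (22444022 to 22444032), 500 (22444781 to 22444822) and 421 (22445046 to 22445065). Each overlapped at least 1 mitochondrial site with a higher score, of 2159, 1120, 1615, 1062 and 750 in the same order. In the retinoic acid list the highest were 494 (22444886 to 22444900), 323 (22444022 to 22444032), 288 (22444231 to 22444244), 266 (22444755 to 22444768) and 242 (22443626 to 22443647). The site scored 494 overlapped no treated mitochondrial site and had an untreated partner scored 246, so it was among the few that scored higher in the retinoic acid list. It lies within the longest stretch of Gm13340 shown above, between the substitutions T225C and C313T, which are counted from the first base of mt-Co1.

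Against the mitochondrial stretch that it faces, the chromosome 2 locus scored lower than the chromosome 1 locus did. It had 36 untreated sites against 62 mitochondrial ones and summed scores of 5447 and 30707, a ratio of 0.177, and 26 treated sites against 49 with 3472 and 17748, a ratio of 0.196. Opposite mt-Co1 the ratio was 0.184 untreated (4649 over 22 locus sites against 25310 over 44) and 0.210 treated (3130 over 22 against 14924 over 35). Opposite mt-Co2 it was 0.152 (645 against 4242) and 0.121 (294 against 2435), and opposite mt-Nd2, with 3 and 1 locus sites, 0.654 and 0.274. After mirroring, 21 of 36 untreated sites (58.3%, interval 40.8 to 74.5) and 16 of 26 treated sites (61.5%, 40.6 to 79.8) overlapped a mitochondrial site by at least 1 base. Counted by bases, mitochondrial sites covered 33.2% and 22.3% of the stretch, and 41.8% and 41.3% of the bases within chromosome 2 sites lay in them. A shift 221 bases away gave more overlaps in the untreated list, 31, and a shift 296 bases away gave 21 in the treated list, so the overlap count singles out no placement on chromosome 2. In the pairs at the placement, the locus score was a median of 0.437 of the mitochondrial score over 17 untreated pairs (0.275 to 0.561) and 0.313 over 15 treated pairs (0.165 to 0.394), and it was the higher in 0 of them.

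**Figure D3:**
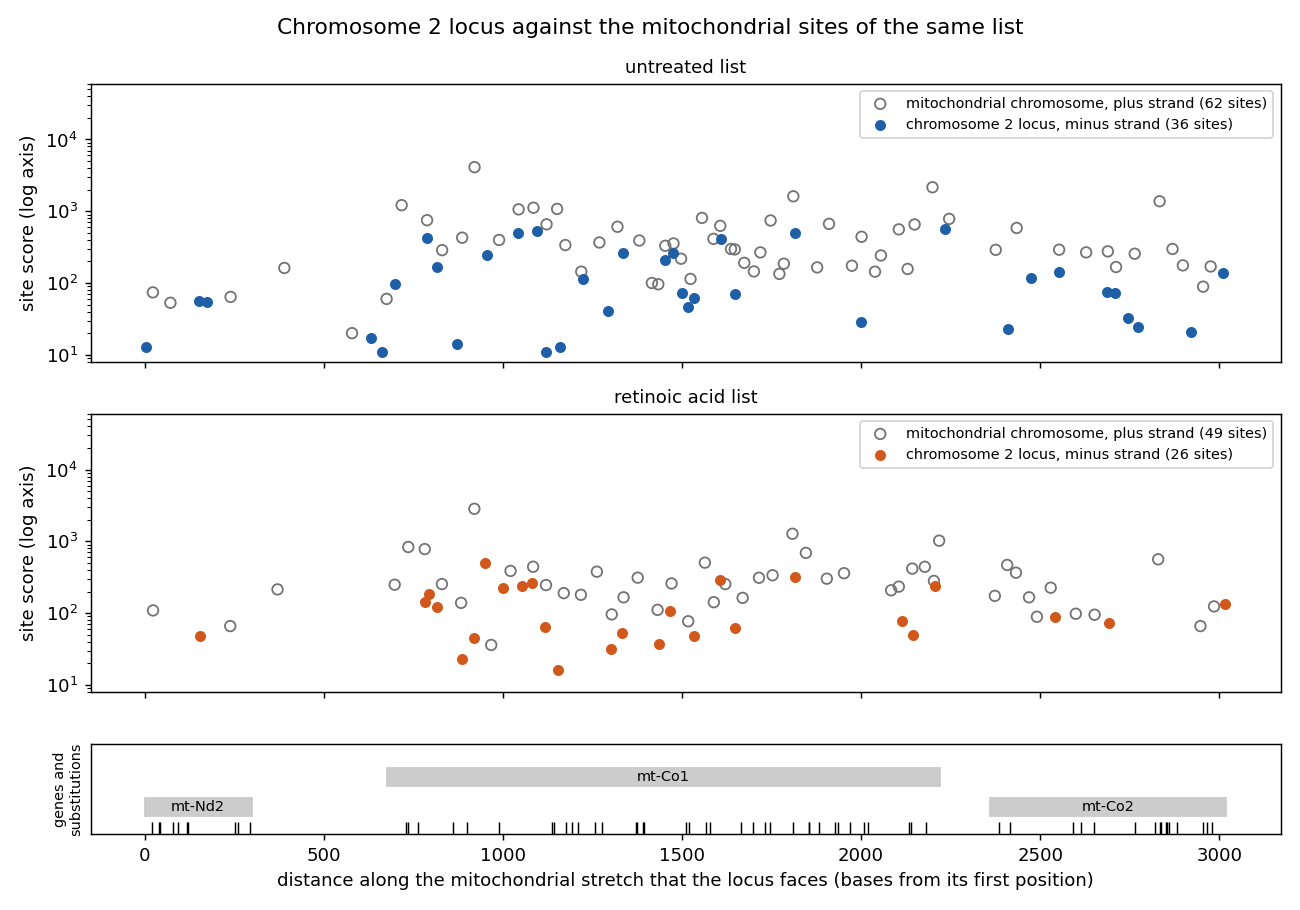
Score of each site (vertical log axis) against distance in bases along the mitochondrial stretch that the chromosome 2 locus faces (horizontal axis), untreated list above and retinoic acid list in the middle, with open circles for the mitochondrial plus strand and filled ones for the locus. Ticks below the genes mark substitutions between copy and mitochondrial DNA, and the locus sites with the highest scores, up to 568 untreated and 494 treated, lie opposite mt-Co1.

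On chromosome 2, 19 of 36 untreated sites (52.8%, interval 35.5 to 69.6) and 19 of 26 treated sites (73.1%, 52.2 to 88.4) recurred in the other list. Plus-strand mitochondrial sites of the stretch that it faces gave 59.7% (46.4 to 71.9) and 79.6% (65.7 to 89.8). For the chromosome 2 sites themselves, scores differed with recurrence. The median score was 208 for untreated sites that recurred against 33 for the others, and 120 against 49 for treated ones. The site at 22444022 to 22444032, opposite mt-Co1, had the same start and end in both lists, with scores of 505 untreated and 323 treated, and it was the single such site of both loci. At 16 pairs the treated score was a median of 0.784 of the untreated score (0.509 to 0.964, range 0.196 to 5.91), and it was the higher in 3. All 3 lay opposite mt-Co1, with untreated and treated scores of 13 and 16, of 11 and 65, and of 246 and 494. The pair scored 265 and 52, also opposite mt-Co1, had the lowest ratio.

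At the placement, most chromosome 2 sites lay between the substitutions that separate the copy from mitochondrial DNA. Of 59 sites on pseudogene sequence, 57 held no substitution (96.6%, interval 88.3 to 99.6), 32 of 33 untreated and 25 of 26 treated. Of 108 mitochondrial plus-strand sites on the same genes, 79 held none of these positions (73.1%, 63.8 to 81.2), and windows of the same lengths at every position of the pseudogenes held none in 70.4% of cases. With 5 bases added on each side the shares were 83.1% (71.0 to 91.6), 53.7% (43.8 to 63.3) and 54.1%, and with 10 bases they were 66.1% (52.6 to 77.9), 41.7% (32.3 to 51.5) and 41.7%. The substitutions were fewer in the locus sites than in the mitochondrial sites and windows, and the intervals of both lists together did not overlap at any of these widths. Within the retinoic acid list alone they overlapped at each width, at 80.4 to 99.9 against 61.1 to 86.7 for the sites themselves. Within the untreated list they overlapped with 10 bases added. These shares were seen when the placement was chosen, and sites that recur are counted once in each list. Over shifts of up to 5 bases the share of sites with no substitution was 88.1% to 98.3%, and over shifts of up to 20 bases 76.3% to 98.3%. The tied shift 10 bases away gave 78.0%, within the interval of the mitochondrial sites, so the difference rests on the choice among tied shifts. A shift of 493 bases gave a share of 81.6% with 5 bases added, close to the 83.1% at the placement, with 38 sites on sequence instead of 59, and the median over shifts was 54.1%. The identical site of both lists, at 22444022 to 22444032, lies 3 bases from C1134T, which is counted from the first base of mt-Co1 and is the base in capitals in the third pair of sequences above. On chromosome 1, with its few substitutions, 132 of 132 sites wholly on pseudogene sequence and 157 of 158 mitochondrial sites held none, so the same comparison says little there. The site scored 789, which covers T3C, reaches beyond the start of Gm28438 and is not among the 132.

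**Figure D4:**
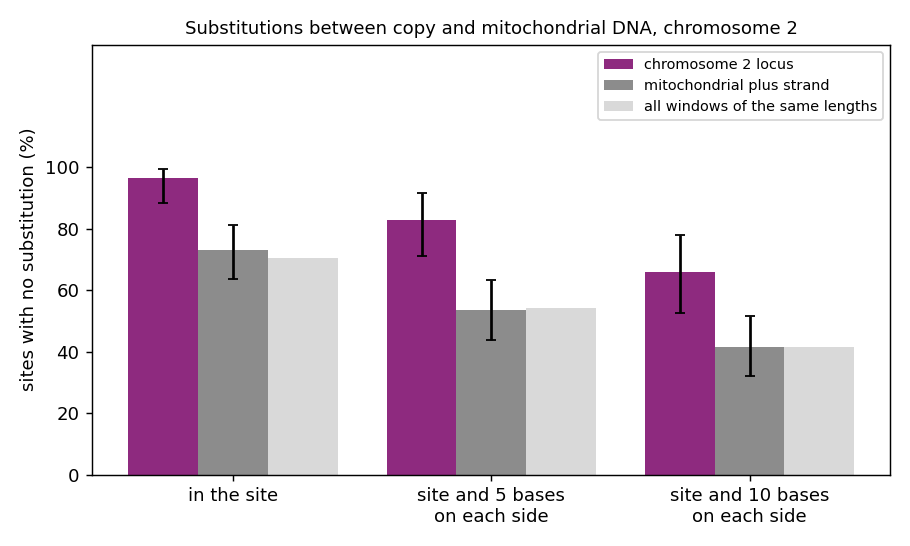
Share of sites with no substitution between the chromosome 2 copy and mitochondrial DNA (vertical axis, percent), within the site and with 5 or 10 bases added on each side, for 59 locus sites, 108 mitochondrial plus-strand sites and all windows of the same lengths. Bars are shares of both lists together, error bars are exact 95% binomial intervals, and the locus bars are the highest in each group, at 96.6%, 83.1% and 66.1%.

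Both loci face the same 1259 bases of mitochondrial DNA, positions 6414 to 7672, the 3′ part of mt-Co1 and nearly all of mt-Co2. There the untreated summed scores were 4996 on chromosome 1 (27 sites), 1747 on chromosome 2 (12 sites) and 13064 on the mitochondrial plus strand (27 sites), which are 25.2%, 8.82% and 66.0% of their total. The treated sums were 1849 (17 sites), 985 (7 sites) and 7668 (21 sites), or 17.6%, 9.38% and 73.0%. Of the nuclear copies, that on chromosome 1 had more sites and the larger summed score here in both lists. It also has the higher identity to mitochondrial DNA over all aligned bases, and a link between identity and score was not tested. Near the identical chromosome 2 site in mt-Co1 all 3 places had a site in both lists, with scores of 331 on chromosome 1, 505 on chromosome 2 and 1615 on the mitochondrial chromosome untreated, and of 459, 323 and 1276 treated. How reads that match several places were assigned is not stated in the labels, and RNA from the nuclear copies and from the mitochondrial genome cannot be told apart where the sequences are identical.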

How the data were processed

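JARID2 PAR-CLIP sites of untreated and retinoic acid-treated E14 cells were read from 2 lists that the authors deposited, each pooling 3 libraries. Values are the whole-number score per site that the authors deposited. Bowtie and the mm9 build come from the tools and builds listed per the submitters' processing notes. What the score counts, the site caller, the handling of reads with several matches and the read depth: not given in the sources used here.

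Members and lists were chosen with earlier results of these data known. Recurrence needed an overlap of 1 base or more on one strand, and pairs were sites that overlapped 1 site of the other list each, with mutual best overlaps as an alternative added after seeing the data. Named sites were the 5 highest scores of each locus and list, the first and last sites and identical pairs, and others were chosen after their values were seen. Copies were aligned to mitochondrial genes from GENCODE M21 transcripts (GRCm38), assuming that mm9 holds the same mitochondrial record and that E14 cells carry the reference sequence. A planned search for identical mirrored sites singled out no shift. Scans of overlap, of T content against mitochondrial DNA and against the pseudogenes, and of substitutions were then viewed before the placement rule was chosen, and the score correlation was scanned afterwards. The placement was tested on simulated data, where it did not always recover the true shift. Intervals of medians are 95% order-statistic intervals. Coordinates are counted from 1. Tools were Biopython 1.88, matplotlib 3.10.9, numpy 2.4.6 and scipy 1.17.1 under Python 3.11.15.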

Additional observations from a re-analysis of the deposited data

How the results depend on the processing

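No paired analysis was possible because each list pools 3 libraries, and for the same reason no library could be left out. Of 49 alternative values, 29 stayed close to the value reported and 20 moved. Close meant within the 95% interval of the reported value or, for counts of matched sites, within a fixed factor of it. The values for sites scored at least 10 and for sites within 10 kb of the windows could not move. No locus site scored below 10, and no other minus-strand site lay that near. Recurrence, in the order chromosome 1 untreated and treated, chromosome 2 untreated and treated, was 0, 0, 2.78% and 3.85% for identical start and end, 19.0%, 28.1%, 30.6% and 42.3% for overlap of 50% of both sites, and 96.4%, 100%, 88.9% and 100% within 100 bases. Among sites scored at least 100 it was 37.8% for chromosome 1 untreated, 85.7% for chromosome 1 treated, 73.3% for chromosome 2 untreated and 91.7% for chromosome 2 treated. Matches to mitochondrial sites were counted at the best shift of each locus, list and measure, and these shifts differed. The mirrored start and end of a mitochondrial site were found for 3, 2, 3 and 2 sites, against 0 at the placement in each case. Overlap of at least 1 base was found for 60, 40, 31 and 21 sites, at shifts of -5, 4, 221 and 296 bases from the placement. No value could be given for identical pairs of the chromosome 1 score ratio or of the locus and mitochondrial scores, since there were 0 such pairs. The 4 other tied shifts, compared after seeing the data, gave 98.3%, 96.6%, 96.6% and, 10 bases away, 78.0% of chromosome 2 sites with no substitution. Read depth and the score's meaning are unknown, which limits every comparison of scores.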

Other observations

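The plus strand of the loci, opposite to the pseudogenes, held few sites and low scores. On chromosome 1 there were 26 untreated and 7 treated plus-strand sites, with highest scores of 97 and 55 and summed scores of 957 and 217. The mitochondrial minus strand over the facing stretch had 23 and 2 sites, whose scores summed to 567 and 50. Of the 26 untreated sites, 7 overlapped a mitochondrial minus-strand site after mirroring (26.9%, exact 95% binomial interval 11.6 to 47.8). On chromosome 2 there were 4 untreated and 0 treated plus-strand sites. Of these plus-strand sites, 29 of 29 on chromosome 1 pseudogene sequence and 4 of 4 on chromosome 2 sequence held a T on their own strand, which the placement rule had not used. For minus-strand sites the mean share with a T was already 96.8% and 96.0% over the shifts that kept at least 50% of the sites on sequence. Plus-strand sites were not scanned over shifts, so these counts do not single out the placement.

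Summed in bins of 250 bases, the untreated chromosome 1 locus and mitochondrial plus strand had a Spearman rho of 0.709 over 19 bins, and the treated ones 0.398, with Pearson correlations of 0.778 and 0.164. On chromosome 2 rho was 0.762 and 0.716 over 13 bins, with Pearson correlations of 0.425 and 0.118. The untreated and treated chromosome 1 loci had a rho of 0.456 and a Pearson correlation of 0.226, and the chromosome 2 loci 0.875 and 0.755. Bins of 1 locus share a list and its base composition, so these values are a description of the lists.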
